A study of Homo sapiens with 4 samples.

Results

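The 33 genes described here, of 36601 in the files, belong to the unfolded protein response and the integrated stress response, and were taken by symbol from a list of known pathway members. They comprise 11 endoplasmic reticulum (ER) chaperones and co-chaperones, 3 protein disulfide isomerases, 7 genes of ER-associated degradation, 7 sensors and transcription factors, and 5 targets or feedback genes of ATF4. Their levels were measured in microglia-like cells. These derive, through monocyte-like precursors, from the human embryonic stem cell line H9, which is established and widely used. The study asked how blocking γ-secretase changes expression, and whether bacterial lipopolysaccharide (LPS), a signal independent of that protease, overrides the change. Semagacestat is a small-molecule inhibitor of γ-secretase.

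All 12 cultures came from precursors harvested at day 25 and were kept for 7 days in TIC medium, which contains TGF-β, IL-34 and cholesterol. Ctrl cultures received vehicle (DMSO and PBS), Sema cultures 2 µM semagacestat for 22 h, LPS cultures DMSO and then 200 ng/mL LPS for the last 6 h, and SemaLPS cultures both agents. There were 3 cultures per condition, numbered 1 to 3, which the submitters call biological replicates. All are of 1 cell line, and the p-values cover the variation among these 12 cultures. Cells of all groups were collected in 5 µM actinomycin D, an inhibitor of transcription. Each culture carried its own hashtag antibody, and the pooled cells were divided into 2 droplet libraries.

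The 14833 kept cells gave between 30006490 (Ctrl-2) and 51021705 (SemaLPS-2) unique molecular identifiers (UMIs) per culture, with medians of 27294 to 31354.5 UMIs per cell. The pool was made from about 24000 cells by the labels, and the files hold 28943 barcodes, of which 23.66% carried more than 1 hashtag and were left out as doublets, while 91 barcode sequences occurred in both libraries. CPM here are counts scaled to library totals adjusted by the TMM factors of edgeR, except where given within a class of cells. This scaling raises LPS cultures relative to Ctrl cultures, as described below. Summed levels of 14 microglia and macrophage markers lay between 7594 and 8556 CPM in every culture. With LPS, however, 4 of the 14 rose and 9 fell (median log2 fold change -0.41). The 5 plasma and B cell markers summed to below 1 CPM. Summed levels of 7 monocyte and neutrophil-like markers lay between 223.9 and 276.3 CPM without LPS and between 1096 and 1243 CPM with it; 3 of the 7 rose and 2 fell in LPS against Ctrl. Endothelial markers summed to 71.5 to 93.2 CPM in Ctrl and 37.3 to 52.0 CPM in LPS cultures, and both that were tested fell. Cells detecting at least 3 of 8 dividing-cell markers, called the dividing class here, made up 22.46 to 32.71% of the cultures without LPS and 16.28 to 23.76% of those with it. Between 20.24 (LPS-1) and 39.21% (Ctrl-2) of a culture's cells had over 10% mitochondrial UMIs and were not kept.

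Secretory and membrane proteins fold in the ER with the help of chaperones and disulfide isomerases, and those that fail are drawn back to the cytosol for degradation. Unfolded protein in the ER activates the sensors PERK (EIF2AK3), IRE1 (ERN1) and ATF6. IRE1 splices the XBP1 transcript into the form that encodes an active factor, ATF6 is cut to release one, and PERK phosphorylates eIF2α, which lowers translation in general while ATF4 is translated more. The integrated stress response is the branch through eIF2α and ATF4, which other kinases also reach from amino acid shortage, viral RNA or haem deficiency. Macrophages use parts of both programmes during activation by microbial products. Counts per gene, as measured here, do not separate spliced from unspliced XBP1, and report neither the translation of ATF4 nor cleavage of ATF6.

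Promoters of several members carry short elements through which these factors act, and they are shown here because they group the members by known inputs. RefSeq promoters (250 bases before to 50 after a start, GRCh38.p14) were matched for 30 of the 33 members and held 42 starts. PDIA3, DERL1 and DERL3 were not matched. Where a gene had several starts, its sequence is shown for the start with most matches. In the GENCODE v29 annotation, the stretches shown for HSP90B1, CANX, ASNS and CHAC1 lie inside the gene. The ER stress element (ERSE), CCAAT followed by any 9 bases and CCACG, bound by ATF6 together with NF-Y, was found on either strand in 7 of the 30 members (23.33%) and in 0.0916% of 27305 genes with such promoters. The 7 were HSPA5, HSP90B1, CALR, CANX, CRELD2, PDIA6 and XBP1. ERSE-II, which is ATTGG, any base and CCACG, was found in HERPUD1, HYOU1 and SDF2L1 (10.0%, against 0.0696% of all genes). In the sequences below, upstream of the start and on the gene's own strand from 5′ to 3′, capitals mark the matches; the second match of HSP90B1 and the matches of HYOU1 lie on the opposite strand, apart from the XBP1 core.
HSPA5, chr9:125241376-125241424, minus strand: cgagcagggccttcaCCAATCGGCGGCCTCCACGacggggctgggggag
HSP90B1, chr12:103930201-103930354, plus strand: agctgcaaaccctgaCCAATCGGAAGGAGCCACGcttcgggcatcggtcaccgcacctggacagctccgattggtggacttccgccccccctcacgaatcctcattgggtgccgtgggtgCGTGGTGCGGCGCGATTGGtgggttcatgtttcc
XBP1, chr22:28800588-28800636, minus strand: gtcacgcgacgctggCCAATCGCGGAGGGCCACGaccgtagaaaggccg
CANX, chr5:179698763-179698811, plus strand: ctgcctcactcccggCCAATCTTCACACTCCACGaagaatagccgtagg
HYOU1, chr11:119057259-119057408, minus strand: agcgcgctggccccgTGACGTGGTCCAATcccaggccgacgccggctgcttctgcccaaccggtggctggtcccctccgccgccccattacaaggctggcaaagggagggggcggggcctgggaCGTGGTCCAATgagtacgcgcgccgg

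HERPUD1 held an ERSE-II and also the C/EBP-ATF element TGATGNAA (N is any base), to which ATF4 binds with C/EBP partners. That element was found in 4 of 30 members (13.33%), namely HERPUD1, ASNS, CHAC1 and CREB3L2, against 4.4571% of all genes. The XBP1 core TGACGTGG was found in HYOU1 (3.33% of members, against 0.9266% of all genes), where it overlaps an ERSE-II. A match is a description of these letters, and binding was not measured. The members were listed as known pathway genes, so their higher shares describe that list and test nothing about it. The next 3 sequences carry the C/EBP-ATF element, in HERPUD1 and CHAC1 on the opposite strand.
HERPUD1, chr16:56931951-56932050, plus strand: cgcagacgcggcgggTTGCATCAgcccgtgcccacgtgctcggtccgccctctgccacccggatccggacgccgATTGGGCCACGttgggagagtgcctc
ASNS, chr7:97872454-97872491, minus strand: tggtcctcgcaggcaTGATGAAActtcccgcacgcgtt
CHAC1, chr15:40953247-40953284, plus strand: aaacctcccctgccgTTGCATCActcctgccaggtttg

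After TMM scaling, LPS raised most ER chaperones by a modest amount, raised XBP1, EDEM1 and PPP1R15A more than 2-fold, and lowered CREB3L2. Of the 33 members, 32 passed the filter on low counts, which left 15057 genes in all, and ASNS did not. Against Ctrl cultures, 20 of the 32 rose and 3 fell past an adjusted p of 0.05 (quasi-likelihood test of edgeR, adjusted by Benjamini-Hochberg over all genes tested), and 9 did not pass. Of all genes tested, 30.3% rose and 28.8% fell in this comparison. The median log2 fold change was 0.23 over the 32 members and -0.02 over all genes. The smaller rises, those of HSP90B1 and DERL1 among them, depend on the TMM scaling of the counts, as given below with the shares of single cells. Levels below are TMM-scaled CPM of UMIs read at the 3′ ends of transcripts, and are not compared between genes. In the GENCODE v29 annotation of GRCh38, HSPA5 lies at chr9:125234853-125241330, and the 4 members called with more than a 2-fold change lie at chr22:28794555-28800597 (XBP1), chr3:5187646-5219957 (EDEM1), chr19:48872392-48876057 (PPP1R15A) and chr7:137874979-138002067 (CREB3L2); all 5 are protein-coding. Fewer cells expressing a gene and less RNA per cell cannot be told apart in these summed counts.

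Among the chaperones, 10 of 11 rose with LPS. HSPA5 (BiP), the Hsp70 of the ER lumen that also holds the sensors inactive, stood at 511, 502 and 522 CPM in Ctrl-1, Ctrl-2 and Ctrl-3 and at 700.2, 636 and 706 CPM in LPS-1, LPS-2 and LPS-3. The groups did not overlap, and the log2 fold change was 0.41 (SE 0.041, edgeR adjusted p = 1.29e-06), a 1.33-fold rise. DNAJB9 (ERdj4), a J-domain partner of BiP, stood at 25.4, 25.4 and 25.7 CPM in Ctrl and at 38.0, 37.6 and 33.9 CPM in LPS cultures, a 1.43-fold rise (adjusted p = 1.28e-06). MANF, a secreted ER-resident neurotrophic factor, rose by 0.48 on the log2 scale, from 117.3 ± 7.84 to 163.7 ± 16.2 CPM (SD, n = 3 each; edgeR adjusted p = 2.65e-05).

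The other chaperones that rose did so by less. DNAJB11 (ERdj3), another BiP co-chaperone, rose 1.31-fold, and HYOU1 (Grp170), a nucleotide exchange factor of BiP, rose 1.28-fold from 32.1 ± 0.316 to 41.1 ± 1.07 CPM (SD, n = 3 each). The lectin chaperone CALR and CRELD2, a stress-induced ER protein, each rose 1.21-fold, and SDF2L1, which partners ERdj3, 1.20-fold. HSP90B1 (Grp94), the Hsp90 of the ER, stood at 764, 756 and 781 CPM in Ctrl cultures and at 890.4, 836 and 941 CPM in LPS cultures, a 1.16-fold rise (adjusted p = 0.000424). CANX, the membrane-bound lectin chaperone, rose 1.07-fold, with adjusted p = 0.0109. The call for CANX was lost with library 2 alone (adjusted p = 0.195), with the 2 conditions fitted alone (0.0556), without Ctrl-1 (0.0503) and with no filter on low counts (0.0707). DNAJC3 (p58IPK), a co-chaperone that also inhibits PERK, stood at 135.5 ± 2.86 CPM in Ctrl and 143.8 ± 6.98 CPM in LPS cultures (SD, n = 3 each) and did not pass (adjusted p = 0.0772). With the number of the culture as a block, whose basis is given with the processing, DNAJC3 passed at 0.0151.

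**Figure D1:**
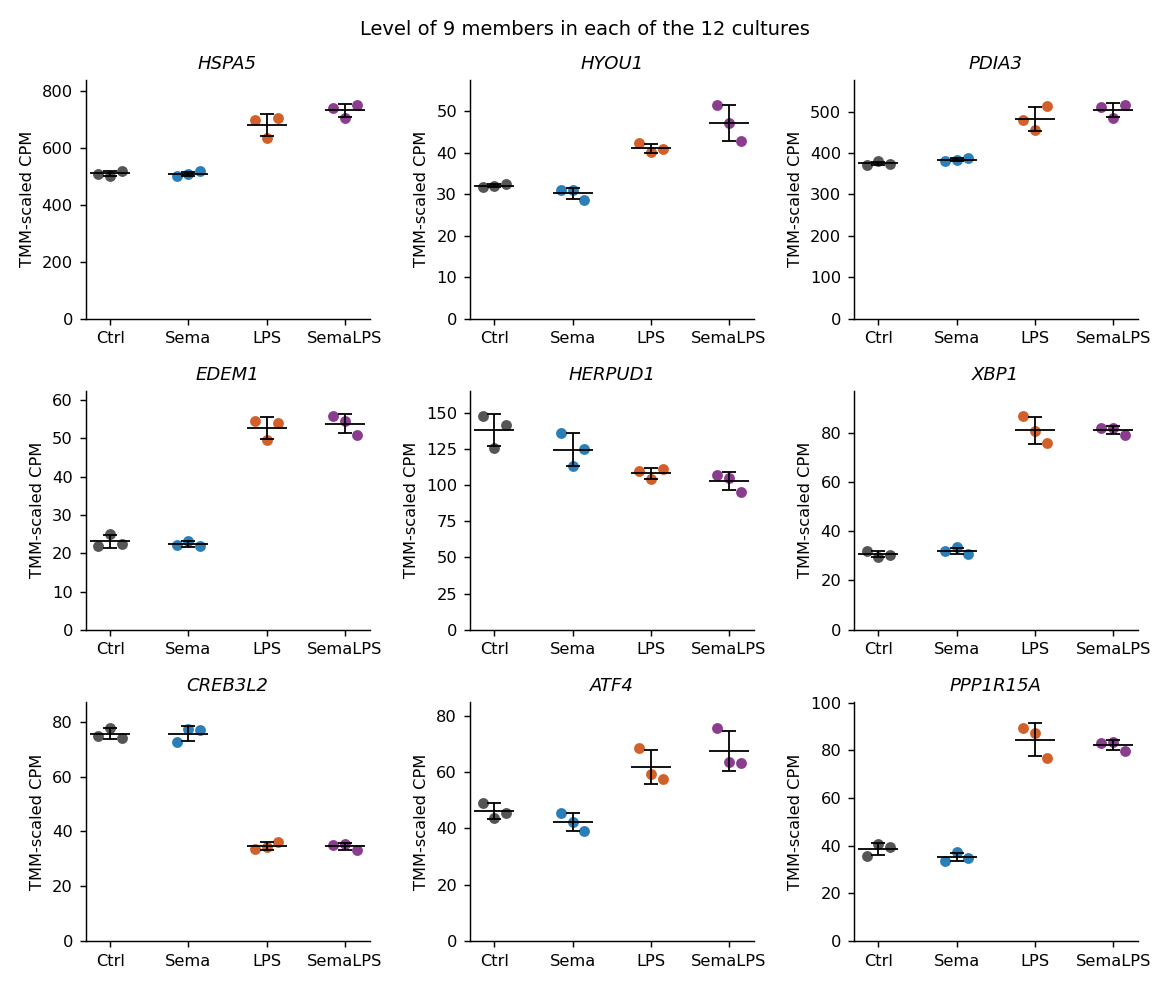
Levels of 9 members (TMM-scaled CPM, each axis starting at 0) in the 12 cultures, with points for cultures 1 to 3 from left to right and bars for the mean and SD of each condition. XBP1, EDEM1 and PPP1R15A stand more than 2-fold higher in LPS and SemaLPS cultures, HSPA5, PDIA3 and ATF4 by less, and CREB3L2 and HERPUD1 lower.

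Of the disulfide isomerases, which form and rearrange disulfide bonds, PDIA3 (ERp57), the partner of CALR and CANX, rose 1.29-fold with LPS. It stood at 371, 379.7 and 374 CPM in Ctrl and at 479, 456 and 513 CPM in LPS cultures, with no overlap (adjusted p = 4.57e-06). PDIA6 rose 1.11-fold (adjusted p = 0.00472), from 285.7 to 293.9 CPM in Ctrl to 301.9 to 332.9 CPM in LPS cultures. PDIA4 did not pass (adjusted p = 0.573), at 102.8 ± 2.00 and 104.7 ± 2.55 CPM (SD, n = 3 each).

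The degradation genes moved apart from one another. EDEM1, a lectin that extracts misfolded glycoproteins from the folding cycle, stood at 21.8, 25.1 and 22.5 CPM in Ctrl cultures and at 54.7, 49.6 and 54.0 CPM in LPS cultures. Its log2 fold change was 1.19 (SE 0.060, edgeR adjusted p = 1.07e-09), a 2.28-fold rise with wide separation of the groups. DERL2 and DERL1, membrane proteins of the retrotranslocation machinery, rose 1.18-fold and 1.15-fold (adjusted p = 0.000439 and 0.000759).

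HERPUD1, a ubiquitin-like scaffold of the degradation complex whose promoter carries both an ERSE-II and a C/EBP-ATF element, moved the other way. It stood at 147.3, 125.8 and 141.5 CPM in Ctrl and at 109.6, 103.8 and 111.0 CPM in LPS cultures, a log2 fold change of -0.35 (SE 0.071, edgeR adjusted p = 0.000702). SEL1L, the adaptor of the ubiquitin ligase, stood at 74.4 ± 5.34 and 74.7 ± 4.07 CPM (SD, n = 3 each; adjusted p = 0.949), and the ligase SYVN1 (HRD1) at 7.73 ± 0.919 and 6.77 ± 0.359 CPM (adjusted p = 0.0894). DERL3, a derlin that is strongly induced in secretory cells, was at 5.46, 3.50 and 3.12 CPM in Ctrl and 4.22, 2.10 and 3.06 CPM in LPS cultures, from 71 to 180 UMIs each, and overlapped (adjusted p = 0.312). With the block its log2 fold change of -0.36 passed (adjusted p = 0.0170), and without dividing-class cells, fitted without the block, it was -0.14 (adjusted p = 0.730).

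Among sensors and transcription factors, XBP1 rose 2.64-fold with LPS and CREB3L2 fell 2.18-fold. XBP1 stood at 32.0, 29.6 and 30.4 CPM in Ctrl and at 86.5, 80.5 and 75.8 CPM in LPS cultures, a log2 fold change of 1.402 (SE 0.053, edgeR adjusted p = 6.28e-11). CREB3L2, a membrane-bound factor related to ATF6, stood at 75.0, 77.9 and 74.1 CPM in Ctrl and at 33.5, 34.3 and 36.1 CPM in LPS cultures, a log2 fold change of -1.13 (SE 0.045, adjusted p = 1.02e-10). In both genes the groups lay far apart relative to the spread between cultures.

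The 3 ER sensors did not move together. ATF6 rose 1.14-fold, from 45.1 to 49.2 CPM in Ctrl cultures to 53.0 to 55.0 CPM in LPS cultures (adjusted p = 0.00252). ERN1 fell, from 7.67 ± 0.368 to 6.04 ± 0.517 CPM, a log2 fold change of -0.34 (adjusted p = 0.00271), and its call was lost with library 2 alone (0.0835). EIF2AK3 was at 4.39 ± 0.357 and 4.26 ± 0.313 CPM and did not pass (adjusted p = 0.755).

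ATF4, the central factor of the integrated stress response, stood at 49.2, 43.7 and 45.6 CPM in Ctrl and at 68.7, 59.3 and 57.6 CPM in LPS cultures, a 1.34-fold rise with no overlap (adjusted p = 0.000753). Culture 1 was the highest of its condition in both. DDIT3 (CHOP), a factor downstream of ATF4 known for its part in stress-induced cell death, rose 1.23-fold, from 16.5 to 19.9 CPM in Ctrl cultures to 22.8 to 23.5 CPM in LPS cultures (adjusted p = 0.00101).

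Of the 4 tested ATF4 targets and feedback genes, PPP1R15A (GADD34), the phosphatase subunit that reverses eIF2α phosphorylation, rose 2.19-fold with LPS. It stood at 35.7, 40.6 and 39.6 CPM in Ctrl and at 89.6, 87.3 and 76.7 CPM in LPS cultures (log2 fold change 1.13, SE 0.064, edgeR adjusted p = 4.27e-09). SESN2, a sestrin that restrains mTORC1, did not pass, at 9.86 to 11.6 CPM in Ctrl and 10.9 to 13.4 CPM in LPS cultures (adjusted p = 0.255).

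TRIB3, a pseudokinase that feeds back on ATF4, was read from 24 to 36 UMIs per Ctrl culture and 17 to 24 per LPS culture, at 0.880 ± 0.175 and 0.572 ± 0.0705 CPM. Its log2 fold change of -0.62 (SE 0.26) just missed the threshold (adjusted p = 0.0557). CHAC1, an enzyme that breaks down glutathione, was read from 3 to 8 and 6 to 14 UMIs (adjusted p = 0.297), and ASNS, asparagine synthetase, from 4 to 6 and 5 to 10. The log2 fold change of CHAC1 was 0.83 with an SE of 0.66, so these counts could not resolve a change of the size seen for PPP1R15A. The fall of TRIB3 passed in 7 of 22 alternatives, among them hashtags assigned by ratio (adjusted p = 0.0160), no dividing-class cells (0.0321) and library 2 alone (0.0498), with adjusted p of 0.0160 to 0.589 over all 22. ASNS was not tested.

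The other kinds of cells and the quality filter were followed beside these changes. With LPS, the summed monocyte and neutrophil-like markers were higher and the summed endothelial markers lower, and the dividing class was smaller in each LPS culture than in the Ctrl culture of its number, as given above. Of the 23 members called with LPS, 21 kept their call in each alternative run, including the fits without dividing-class cells and with a mitochondrial limit of 20%. CANX and ERN1 were the exceptions, and neither lost its call in those 2 fits. The part of the monocyte-like and endothelial markers in the result was not tested.

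LPS was also compared in the cultures with the inhibitor. SemaLPS against Sema uses the 6 cultures that LPS against Ctrl does not. Here 22 members rose and 3 fell (30.9 and 30.2% of all genes tested), and 7 did not pass. All 20 members that rose and all 3 that fell without the inhibitor did so with it, and DNAJC3 and PDIA4 also passed. The median log2 fold change was 0.31 over the 32 members. XBP1 rose 2.54-fold, EDEM1 2.40-fold and PPP1R15A 2.34-fold, and CREB3L2 fell 2.19-fold.

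XBP1 stood at 31.8, 33.4 and 30.7 CPM in Sema-1, Sema-2 and Sema-3 and at 82.0, 81.9 and 79.2 CPM in SemaLPS-1, SemaLPS-2 and SemaLPS-3. HYOU1 stood at 30.9, 31.2 and 28.6 CPM and at 51.5, 47.3 and 43.0 CPM, a 1.56-fold rise, and ATF4 at 45.6, 42.4 and 39.1 and at 75.8, 63.6 and 63.3 CPM, a 1.60-fold rise. PDIA4 and ATF6 lost their calls in 2 alternatives each, PDIA4 with library 1 alone (adjusted p = 0.0545) and without Sema-3 (0.0651), ATF6 with library 2 alone (0.111) and without Sema-1 (0.0703). With the block SEL1L (log2 fold change 0.08, adjusted p = 0.0301), CHAC1 (1.25, adjusted p = 0.0436) and DERL3 (-0.48, adjusted p = 0.000521) also passed.

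**Figure D2:**
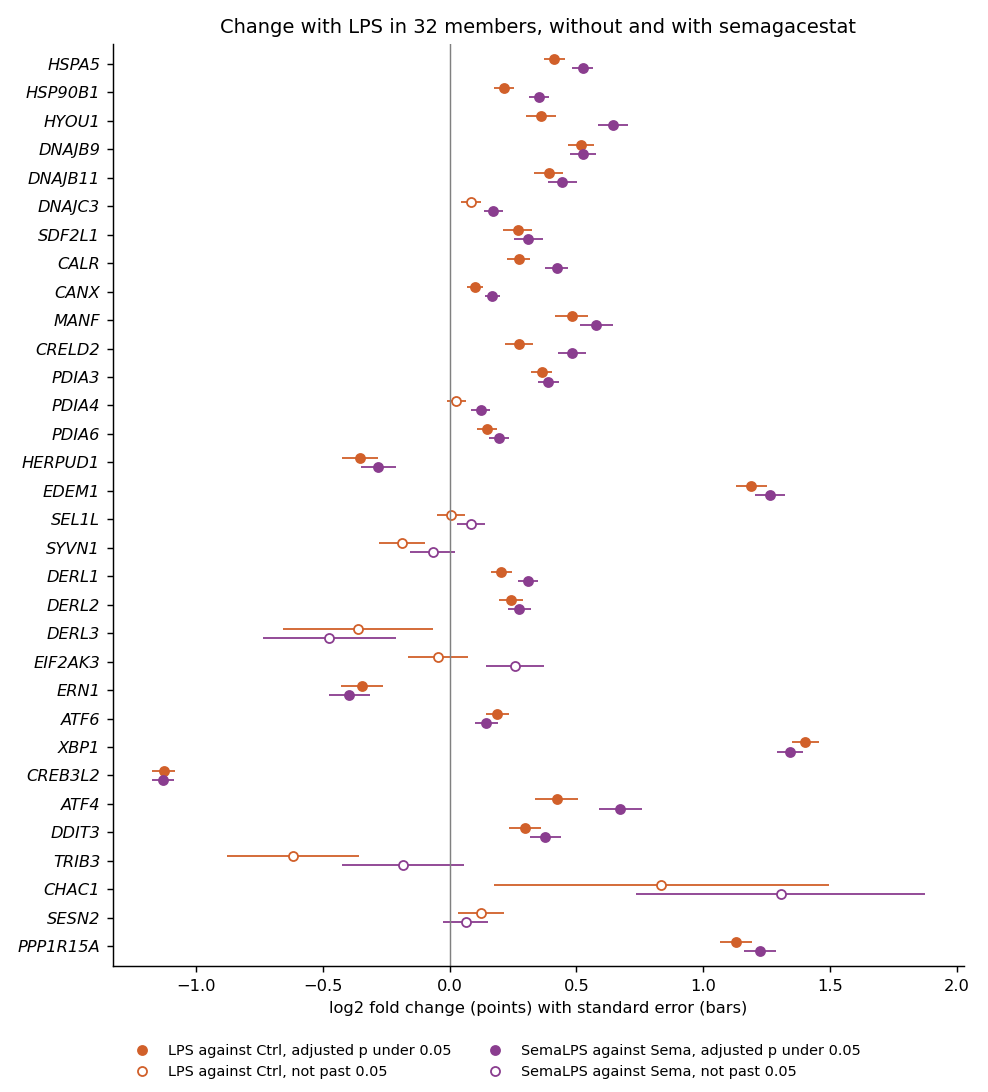
Log2 fold change with LPS for the 32 tested members, without the inhibitor (orange) and with it (purple), each with its standard error; filled points passed an adjusted p of 0.05 in edgeR without the block. In 26 of 32 members, read in the same cultures, the value with the inhibitor is the higher one. The median difference is 0.08, against 0.0037 over all genes tested. No member changes direction between called values.

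Whether the response to LPS differs with the inhibitor was tested as an interaction. In 26 of 32 members the log2 fold change was higher with the inhibitor than without. No member passed in the main edgeR fits, with or without the block, or in DESeq2's Wald test. In alternatives of the fit with the block, given at the end, some did. HYOU1 passed with no filter on low counts (edgeR adjusted p = 0.00252) and without SemaLPS-3 (0.0433). Without the block, 4 members and 551 of 15057 genes tested were at an unadjusted p under 0.05. The 4 included HYOU1 (difference 0.29, SE 0.084), CRELD2 (0.21, SE 0.078) and HSP90B1 (0.14, SE 0.057), all with adjusted p = 1.0 (edgeR). With the block 7 members were at an unadjusted p under 0.05, as were 1214 of 15057 genes tested. Past the adjusted threshold in that fit were 0.0531% of all genes upward and 0.0133% downward. A value that misses the threshold does not show that the responses are alike. ATF4 had the smallest adjusted p of the members with the block (difference 0.25, SE 0.054, adjusted p = 0.148).

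The share of single cells with a transcript was higher with LPS for most members called higher, and lower for some. After each cell was thinned to 10000 UMIs, XBP1 was detected in 26.4 ± 1.95% of Ctrl cells and 49.0 ± 2.89% of LPS cells (SD, n = 3 each), and EDEM1 in 21.4 ± 1.92% and 36.9 ± 0.973%. Without thinning the shares were 54.2 and 80.8% for XBP1 and 46.2 and 69.7% for EDEM1. Of the 20 members called higher with LPS, 4 had a slightly lower thinned share: ATF6 (39.7% in Ctrl and 38.2% in LPS), SDF2L1 (48.1 and 47.6%), PDIA6 (93.1 and 92.9%) and CANX (95.4 and 95.3%). No change is read from these shares, which go against the TMM-scaled CPM. Thinning sets cells to a common UMI total, whereas TMM raises LPS cultures relative to Ctrl cultures. CANX had 11764 to 12314 UMIs per Ctrl culture, of 30006490 to 31567616 in all. LPS cultures had 13020 to 14983 CANX UMIs, of 35556752 to 40612453. Rises as small as those of these 4 members depend on the scaling, and so do some others. Of the same totals, HSP90B1 had 24367 to 26068 UMIs per Ctrl culture and 28261 to 35073 per LPS culture. DERL1 had 967 to 1024 and 1140 to 1323. The median log2 fold changes with LPS, 0.23 over the members and -0.02 over all genes, were also taken after this scaling. Thinning left 3099 of 3178 Ctrl cells and 3537 of 3624 LPS cells. No cell type that should lack these genes was present to give a background share.

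Other genes of the same pathways were followed as lists, against 30.3% of all genes tested that rose with LPS and 28.8% that fell. Of 18 other ER folding genes tested, 12 rose and 3 fell with LPS, led by KDELR2, the receptor that returns ER proteins from the Golgi (144.4 to 196.8 CPM in the mean, log2 fold change 0.45, SE 0.039), SDF4 (0.55) and MYDGF (0.36). Of 15 other ER-associated degradation genes 9 rose and 2 fell. SELENOS, a selenoprotein of the retrotranslocation complex, rose by 0.63 on the log2 scale, NPLOC4, a cofactor of the ATPase VCP, by 0.64 and VCP by 0.35. Of 20 genes of protein translocation and N-glycosylation 12 rose and 3 fell, among them the translocon subunits SEC61B (0.44) and SEC61G (0.49) and the signal receptor subunit SRPRB (0.50). The medians of these lists were 0.15, 0.22 and 0.14, against -0.02 for all genes.

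Of 31 other ATF4 and amino acid response genes tested, 15 rose and 5 fell with LPS (median 0.16), against 30.3 and 28.8% of all genes tested. WARS1, tryptophanyl-tRNA synthetase, rose from 20.2 ± 0.550 to 51.5 ± 2.33 CPM, ATF5, a factor related to ATF4, from 82.5 ± 5.26 to 214.7 ± 5.71 CPM, and MTHFD2, a mitochondrial folate enzyme, from 121.9 to 275.8 CPM in the mean (SD, n = 3 each). WARS1 is also a known interferon target. Of 14 genes of eIF2, its kinases and phosphatases 7 rose and 5 fell, led by the eIF2 subunits EIF2S1 (log2 fold change 0.70) and EIF2S2 (0.79) and the constitutive phosphatase subunit PPP1R15B (0.53).

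Of 12 other sensors and processing genes 5 rose and 3 fell with LPS, against 30.3 and 28.8% of all genes tested. CREB3L1, a relative of CREB3L2, rose from 0.916 ± 0.308 to 7.504 ± 1.50 CPM (log2 fold change 3.03, SE 0.20), CREB3 rose by 0.73 on the log2 scale, and CREB3L4 had a log2 fold change of -1.30. CREB3L1 and CREB3 thus rose while their paralogs CREB3L2 and CREB3L4 fell. For comparison, 5 of 9 cytosolic heat shock genes rose and 1 fell (median 0.18), and all 10 genes of a list of LPS response genes rose (median 4.01), against a median of 0.23 for the members.

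In Sema against Ctrl the members went both ways, 14 of 32 with a positive log2 fold change. No member passed without the block (edgeR), where 0.0133% of all genes tested did. At an unadjusted p under 0.05 were 3 of 32 members, and 1087 of 15057 genes tested. With the block, 9 of 32 members and 2377 of 15057 genes were. The median log2 fold change was -0.01. DESeq2's Wald test called no member either. The 3 members with the smallest unadjusted p (adjusted p = 0.690 each in edgeR) were DERL3, EIF2AK3 and SDF2L1. EIF2AK3 stood at 4.79, 4.28 and 4.103 CPM in Ctrl and at 3.43, 3.51 and 3.96 CPM in Sema cultures, from 123 to 200 UMIs, and SDF2L1 at 67.2, 63.2 and 63.1 against 74.6, 70.5 and 65.9 CPM. The groups did not overlap for EIF2AK3 and overlapped for SDF2L1.

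With the block, DERL3 passed in Sema against Ctrl (log2 fold change 0.64, SE 0.11, edgeR adjusted p = 0.00473), where 1.84% of all genes rose and 1.53% fell. DERL3 stood at 5.46, 3.50 and 3.12 CPM in Ctrl cultures 1 to 3 and at 7.72, 5.24 and 5.70 CPM in Sema cultures 1 to 3, higher in 3 of 3 pairs although the groups overlap. The dividing class moved with it, at 31.88, 22.46 and 24.7% of cells in Ctrl and 32.71, 27.54 and 28.9% in Sema cultures. Without dividing-class cells the log2 fold change was 0.36 (adjusted p = 0.329), and the call was also lost with library 2 alone (0.117), without Ctrl-3 (0.0543) and without Sema-3 (0.0602).

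In LPS-treated cultures the inhibitor left no member past the threshold without the block (0.0133% of all genes tested passed). DESeq2's Wald test called none either. Without the block, 9 of 32 members had an unadjusted p under 0.05 (edgeR), as did 842 of 15057 genes tested. All 9 were higher in SemaLPS than in LPS cultures. With the block 9 members rose and none fell: the chaperones HSPA5, HSP90B1, HYOU1, SDF2L1, CALR and CRELD2, the isomerases PDIA4 and PDIA6, and DERL3. Of all genes tested 1.41% rose and 0.671% fell in that fit. Apart from DERL3, the rises were small, with log2 fold changes of 0.11 to 0.20.

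CRELD2 had the smallest adjusted p of the members in both fits (0.0148 with the block, 0.757 without). It stood at 44.97, 42.4 and 48.0 CPM in LPS cultures 1 to 3 and at 50.8, 49.0 and 55.3 CPM in SemaLPS cultures 1 to 3, a log2 fold change of 0.20 (SE 0.039 with the block), and the groups did not overlap. PDIA4 stood at 104.9, 102.1 and 107.2 CPM and at 117.4, 109.3 and 117.3 CPM (0.13; adjusted p = 0.0488 with the block, 0.779 without). HYOU1 stood at 42.3, 40.3 and 40.8 CPM and at 51.5, 47.3 and 43.0 CPM (0.20; adjusted p = 0.0348 and 0.798). HSPA5 stood at 700.2, 636 and 706 CPM and at 742, 708 and 751 CPM (0.11; adjusted p = 0.0414 and 0.834).

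The 9 members were higher in SemaLPS than in LPS in 3 of 3 same-numbered pairs. That follows from their choice, since the fit that called them was blocked on the same numbers. DNAJB9, DNAJB11, DNAJC3, CANX, MANF, PDIA3, ATF4 and CHAC1, which were not called, were also higher in 3 of 3. In Sema against Ctrl, 4 of the 9 (DERL3, SDF2L1, PDIA4 and PDIA6) were higher in 3 of 3 pairs, and the other 5 in at most 1 of 3. These counts describe pairs that were made by number, and the difference between the 2 comparisons is the interaction, which no member passed in the main fits.

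**Figure D3:**
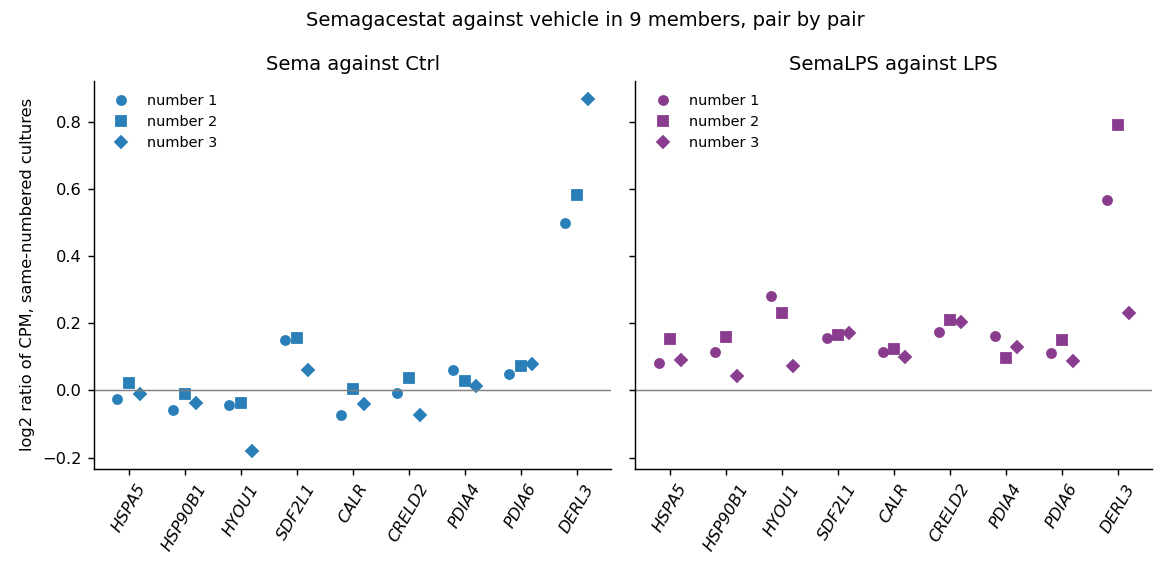
Log2 ratio of TMM-scaled CPM between same-numbered cultures with and without semagacestat, for the 9 members that passed in SemaLPS against LPS with the block; shapes mark culture numbers 1 to 3. Ratios are above 0 in every pair under LPS (right), the comparison by which the members were chosen. Without LPS (left) they are above 0 in every pair for SDF2L1, PDIA4, PDIA6 and DERL3 only.

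The 9 calls depended on which cultures and cells entered. The count was 0 without SemaLPS-1, 0 without LPS-2, 1 without LPS-1, 2 without SemaLPS-3 and 3 without SemaLPS-2, 0 in library 1 alone and 3 (HSPA5, HYOU1 and CRELD2) without dividing-class cells. Without those cells the log2 fold changes of the 5 other chaperones and isomerases that lost their call were 0.108 for HSP90B1, 0.150 for SDF2L1, 0.113 for CALR, 0.137 for PDIA4 and 0.116 for PDIA6 (adjusted p = 0.0525 to 0.101), against 0.106, 0.164, 0.113, 0.130 and 0.116 with them. DERL3 was at 0.43 (adjusted p = 0.229), against 0.52. The dividing class stood at 20.85, 16.28 and 18.03% of cells in LPS cultures and at 23.76, 18.75 and 20.86% in SemaLPS cultures, higher with the inhibitor in every pair.

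The other pathway lists gave no call in an inhibitor comparison without the block. With it, 6 of 31 other ATF4 and amino acid response genes fell in Sema against Ctrl and 5 rose in SemaLPS against LPS. Of all genes tested, 1.53% fell in the former and 1.41% rose in the latter. The 5 were PSAT1 and PHGDH, enzymes of serine synthesis, the glutamine transporter SLC38A2, and the tRNA synthetases GARS1 and EPRS1, named after their values were seen. PSAT1 was at 8.42 ± 3.34 CPM in LPS and 13.99 ± 5.89 CPM in SemaLPS cultures (SD, n = 3 each; edgeR adjusted p = 0.000626 with the block, 0.874 without). SLC38A2 was in both sets, at 92.0, 82.0, 80.1 and 90.7 CPM in the mean of Ctrl, Sema, LPS and SemaLPS cultures, and its interaction passed with the block (difference 0.34, adjusted p = 0.0458) but not without it (1.0).

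Cultures of number 1 were compared with those of numbers 2 and 3 across all conditions. In the fit with the block, 6 of 32 members differed between number 1 and the others (16.4% of all genes tested did), a share near that of all genes, in a contrast added after the data were seen. DERL3 (0.66, SE 0.081), ATF4 (0.20), SDF2L1 (0.11), HERPUD1 (0.11) and DNAJB11 (0.09) were higher in number 1 and SEL1L was lower (-0.11). Within each condition the dividing class was also largest in number 1.

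Cells of the dividing class differed from the other cells of the same culture in 17 of 31 tested members, of which 7 were higher and 10 lower. Of 13009 genes tested, 27.9% were higher and 33.5% lower. The class is cut from a count of markers, is a range rather than a cell type, and holds deeper cells, with medians of 31040 to 38062.5 UMIs against 25641 to 30096 in the others. DERL3 had the largest difference among the members, 3.47-fold higher in the dividing class (log2 fold change 1.80, SE 0.086, edgeR adjusted p = 5.55e-14) in 12 of 12 cultures. Its level, as plain CPM within the class, lay between 4.90 and 14.9 in the dividing class and between 1.32 and 4.66 in other cells, and 59.4% of its 2016 UMIs came from the dividing class. Plasma and B cells also express DERL3, and 1 to 2 of their 5 markers were at 0 UMIs in a culture. The part of such cells in the DERL3 level was not tested.

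**Figure D4:**
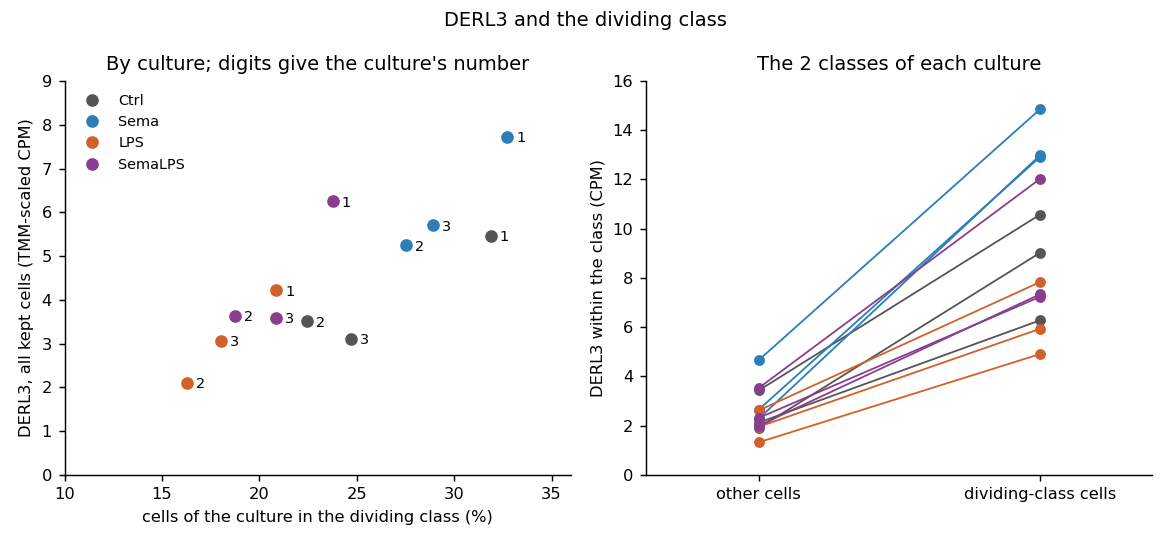
Left, DERL3 level in each culture (TMM-scaled CPM) against the share of its cells in the dividing class, with the culture's number beside each point. Right, DERL3 in other and in dividing-class cells of each culture (CPM within the class, joined by culture); all 12 lines go up, and the dividing class reaches 14.9 CPM in Sema-1.

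SDF2L1 was 1.27-fold higher in the dividing class in 12 of 12 cultures (adjusted p = 9.95e-09), and EIF2AK3 1.19-fold higher in 8 of 12 (adjusted p = 0.0149). The call for EIF2AK3 was lost in library 2 alone (adjusted p = 0.140) and in DESeq2's Wald test (0.0589). PPP1R15A (log2 fold change -0.44), SEL1L (-0.29) and DDIT3 (-0.28) were lower, PPP1R15A and SEL1L in 12 of 12 cultures and DDIT3 in 11 of 12. HSPA5 was also lower in all 12 (-0.12). By role, 3 chaperones were higher and 3 lower, 2 isomerases were higher, and 2 of 3 tested ATF4 targets were lower.

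Cells with over 10 to 20% mitochondrial UMIs, which the filter left out, were compared with kept cells of the same culture over nuclear genes. A high share of mitochondrial RNA is widely used as a mark of damaged cells. Of 31 members 8 were higher and 14 lower in them, against 31.2 and 28.1% of 13829 genes tested. Folding genes were mostly lower, 7 of 11 chaperones and 2 of 3 isomerases, with CANX the 1 chaperone that was higher (0.05, adjusted p = 0.0129). SDF2L1 (-0.38) and XBP1 (-0.30) were lower in 12 of 12 cultures, and DERL3 (-0.69) in 11 of 12.

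Of the 7 degradation genes, 4 were higher and 3 lower in these cells. Besides DERL3, HERPUD1 (-0.15, lower in 12 of 12 cultures) and DERL2 (-0.12) were lower. SEL1L and SYVN1 were both 1.15-fold higher, EDEM1 1.14-fold and DERL1 1.06-fold, and outside that group SESN2 was 1.23-fold higher in 12 of 12 cultures (edgeR adjusted p = 1.68e-06). Members that rose together with LPS thus differed in these cells, where EDEM1 was higher and XBP1 lower.

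**Figure D5:**
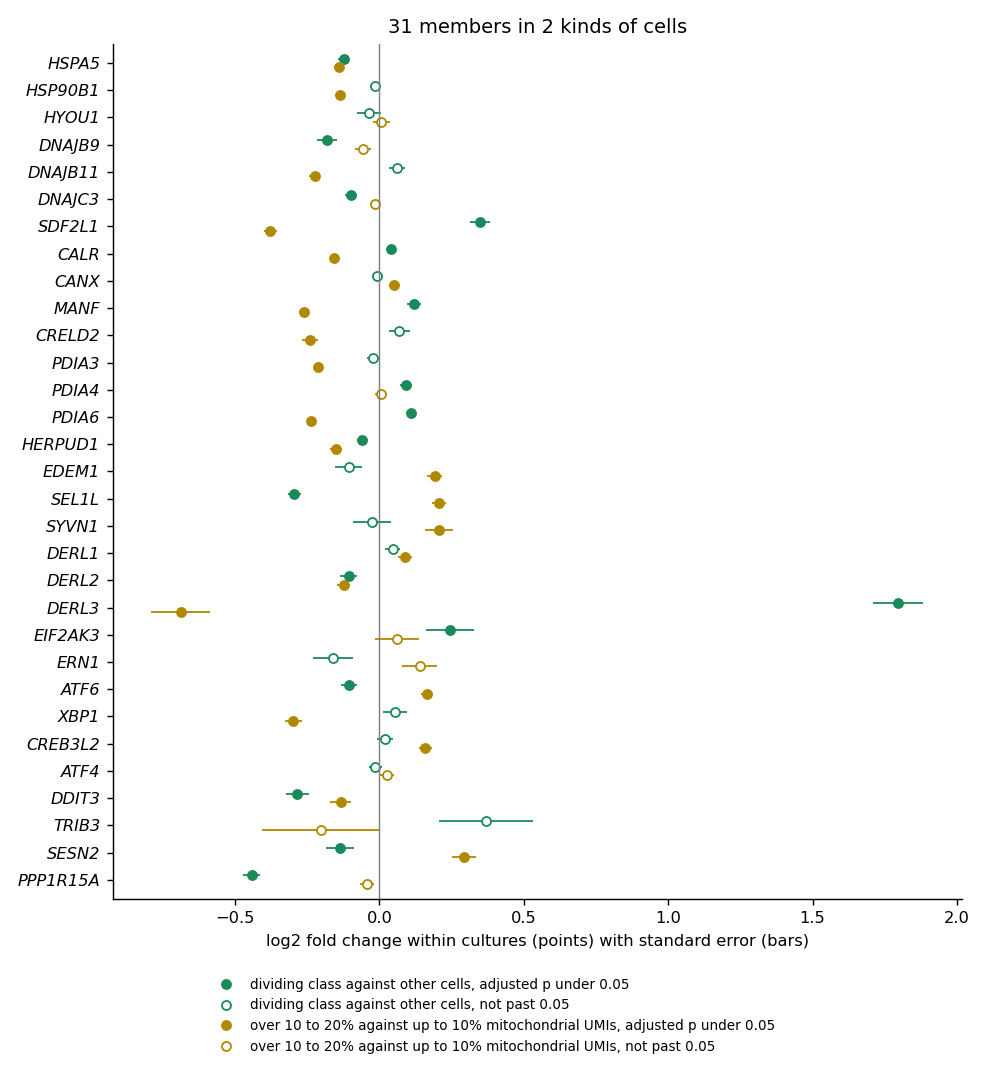
Log2 fold change within cultures, with standard errors, for 31 members in dividing-class against other cells (green) and in cells with over 10 to 20% against up to 10% mitochondrial UMIs (yellow); filled points passed an adjusted p of 0.05. DERL3 lies far to the right in the dividing class (1.80) and to the left in the mitochondrial class (-0.69).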

How the data were processed

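Gene and hashtag UMIs per barcode were used as deposited raw counts, made by the authors with Cell Ranger 6.0.1 per the file headers; the submitters' processing notes name Cell Ranger 3.0.2, Seurat 4.1.1 and hg38, and no source used here names the annotation release. Hashtags were assigned per library in the manner of HTODemux (centred log ratio, k-means with 13 clusters, 0.99 quantile of a negative binomial fit to the background). Kept barcodes had 1 hashtag, 1000 or more genes and no more than 10% mitochondrial UMIs, while those with several hashtags were left out as doublets; doublets within a culture remain. UMIs were summed per culture and tested in edgeR 4.0.16 (R 4.3.3; TMM, filterByExpr, quasi-likelihood test, 12 cultures in 1 fit, Benjamini-Hochberg over all genes tested, threshold 0.05), with DESeq2 1.42.0 as an alternative. The procedure was tested on simulated data. Each standard error was obtained from the fold change and its F statistic.

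Same-numbered cultures deviated together: correlations of their deviations from the condition means were 0.447 to 0.745 over 5279 genes, against -0.563 to 0.168 between other numbers, and 12 of 12 cultures correlated best with their own number. What the numbers mean is not in the labels. The pairing is therefore taken from the values, and the fit with the number as a block is given where it changes a call; further fits with the block were added after the data were seen. Cells of the dividing class, and cells with over 10 to 20% mitochondrial UMIs, were compared with the others within cultures by edgeR. Every tested member is named for the LPS comparisons; for the inhibitor, those past the threshold in either fit and the 3 with the smallest p; for classes, mainly the 3 largest rises and falls; for pathway lists, the 3 smallest adjusted p. HSPA5, CANX, EDEM1, DERL1 and others named for the classes beyond that rule, and ATF4 in the interaction, were chosen after their values were seen. Members and lists were chosen with earlier results of these data known. Promoters are RefSeq's, and gene positions GENCODE v29.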

Additional observations from a re-analysis of the deposited data

How the results depend on the processing

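The number of members called with LPS (23 without and 25 with the inhibitor), in the dividing class (17) and in the mitochondrial class (22) stayed within 1.5 times under every alternative run; 21 of the 23 and 23 of the 25 LPS calls held in each. The replicate block moved the count from 0 to 1 in Sema against Ctrl and from 0 to 9 in SemaLPS against LPS, and gave 25 with LPS, 28 in SemaLPS against Sema and 0 in the interaction. With the block, the count of 1 in Sema against Ctrl became 0 without dividing-class cells, 0 in library 2 alone, 2 in library 1 alone, 3 with no filter on low counts, 4 with the 2 conditions alone, and 0 to 2 with 1 culture left out; it was 0 in DESeq2's Wald test, which gave DERL3 no adjusted p. The count of 9 in SemaLPS against LPS became 5 with hashtags assigned by ratio, 5 with the 2 conditions alone, 3 without dividing-class cells, 0 in library 1 alone, and 0 to 9 with 1 culture left out. The interaction count of 0 with the block became 4 with no filter on low counts, and 0 to 1 with 1 culture left out (HYOU1 without SemaLPS-3).

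Over 106 results for single genes and 2118 recomputed values, 2102 kept their direction and 16 did not, all of members that did not pass. For SEL1L with LPS the log2 fold change of 0.00 became -0.003 with no filter, -0.036 with a mitochondrial limit of 20%, -0.024 without dividing-class cells, -0.016 in library 1 alone and -0.006 with the 2 conditions alone, and lay between -0.055 and 0.05 with 1 culture left out. EIF2AK3 with LPS became 0.121 without dividing-class cells, 0.061 in library 1 alone and between -0.104 and 0.020 with 1 culture left out (0.020 without Ctrl-1). In library 2 alone PDIA4 with LPS was -0.009 and SESN2 -0.015, and SESN2 in SemaLPS against Sema was -0.008 without dividing-class cells and between -0.000 (without Sema-2) and 0.096 with 1 culture left out. The causes were not tested. Depth limits CHAC1 (0 to 23 UMIs per culture), ASNS (2 to 13) and TRIB3 (17 to 46).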
